A study of Mus musculus with 3 samples.

Results

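The genes of cytotoxic granules described here are Gzma, Gzmb, Gzmk, Gzmm, Prf1, Srgn, Nkg7, Ctsw and Serpinb9. They were taken as all probe sets whose platform annotation names one of these symbols alone, which gave 11 of the 45101 probe sets of the array and 9 of 18194 named genes. Prf1 and Serpinb9 have 2 probe sets each and the other genes 1 each. The genes were chosen by family and function with the signals of these 3 arrays in view, the same signals that are given below, so the directions of the members are a description and nothing is supported with them.

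The study profiled mouse CD8 T cells on 3 arrays, 1 per group, and 6 µg of total RNA entered the labelling of each. The groups are VILLIN-HA/CL4-TCR, Villin-HA + CL4-TCR and CL4-TCR. All carry a T cell receptor transgene, CL4-TCR, that makes CD8 T cells specific for HA, the hemagglutinin of influenza virus. Villin-HA in a name stands for HA driven by the villin promoter, which is active in the gut epithelium. The labels give the tissue as MLN, the mesenteric lymph node. The submitters speak of an ordinary CD8 population, one activated in the animal and one that became regulatory there, but the sample labels do not say to which of these populations each sample with Villin-HA in its name belongs. Strain, age and the number of mice per array are not given in the labels. No group has a replicate, so every difference is one between single arrays, without a p-value, and it is not shown to be one between conditions. In RNA from many cells, fewer cells with a transcript and less transcript per cell cannot be told apart.

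Cytotoxic T cells kill by releasing granules toward a target cell. Perforin forms pores, and granzymes, a family of serine proteases, enter the target and cleave proteins that control its survival. Within the granule these proteins are packed on serglycin, a proteoglycan, and inhibitors in the cytosol protect the killer cell from its own proteases. Naive CD8 T cells hold few granzymes, while effector cells accumulate them after antigen and cytokine signals.

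Values are MAS5 signals on a linear scale, with each array scaled to a trimmed mean of 150. A signal of 31.7, the median of all values on the 3 arrays, served as a floor to which lower values were raised before log2 differences were taken. A fold with its lower signal under the floor is a lower bound, written as at least that fold. A gene was measured in a comparison if its higher signal passed the floor, and it is called higher or lower where the floored signals differed by 2-fold or more, a log2 difference of 1. Signals of different genes are not compared, since probes differ in brightness.

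By floored log2 difference, Gzmb and Gzma ranked highest of all measured genes in the Villin-HA + CL4-TCR sample, both relative to the CL4-TCR and relative to the VILLIN-HA/CL4-TCR sample. Gzmb encodes granzyme B, which triggers apoptosis in target cells, and lies on chromosome 14 from 56258836 to 56262334 (GRCm38.p6). It had a signal of 49.3 in the VILLIN-HA/CL4-TCR sample, 12078 in the Villin-HA + CL4-TCR sample and 14.6 in the CL4-TCR sample. It thus stood far above the floor in the Villin-HA + CL4-TCR sample alone, just over the floor in the VILLIN-HA/CL4-TCR sample and under it in the CL4-TCR sample. Gzmb was at least 381-fold higher in the Villin-HA + CL4-TCR than in the CL4-TCR sample, the highest of the 12196 genes measured. The VILLIN-HA/CL4-TCR sample differed from the CL4-TCR sample by a log2 difference of at least 0.64, which is not called. With log2(signal + 16) in place of the floor it was 1.09, past 2-fold.

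Gzma encodes granzyme A, a protease that cuts after basic residues, and lies on chromosome 13 from 113093824 to 113100981. It had signals of 83.3 in the VILLIN-HA/CL4-TCR sample, 18077 in the Villin-HA + CL4-TCR sample and 90.1 in the CL4-TCR sample. All 3 lay above the floor, and those of the VILLIN-HA/CL4-TCR and CL4-TCR samples were close together, with a log2 difference of -0.11 that became 0.00 after quantile normalization. Gzma was 201-fold higher in the Villin-HA + CL4-TCR sample than in the CL4-TCR sample, which ranked 2 after Gzmb. Its signal in the Villin-HA + CL4-TCR sample lay near the highest signal of any probe set there, 19538.

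Gzmk encodes granzyme K, another protease that cuts after basic residues and is found in memory and effector CD8 T cells. It lies on chromosome 13 as well, from 113171630 to 113180965. Its signals were 44.0 in the VILLIN-HA/CL4-TCR sample, 575 in the Villin-HA + CL4-TCR sample and 21.4 in the CL4-TCR sample. As for Gzmb, the CL4-TCR signal was under the floor and the VILLIN-HA/CL4-TCR signal just above it. Gzmk was at least 18.1-fold higher in the Villin-HA + CL4-TCR than in the CL4-TCR sample, with rank 42 of the measured genes. In the VILLIN-HA/CL4-TCR sample the log2 difference from CL4-TCR was at least 0.47, which is not called.

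Gzmm encodes granzyme M, a protease known mainly from natural killer (NK) cells and other innate-like lymphocytes, and lies on chromosome 10 from 79689020 to 79695261. It went apart from the other granzymes, with a signal of 66.0 in the VILLIN-HA/CL4-TCR sample and 30.2 in both the Villin-HA + CL4-TCR and CL4-TCR samples, which is under the floor. It was at least 2.08-fold higher in the VILLIN-HA/CL4-TCR sample than in either of the others. That call was lost with a floor at the 65th percentile of all values and with log2(signal + 16) in place of a floor, where the log2 difference from CL4-TCR was 0.83.

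**Figure D1:**
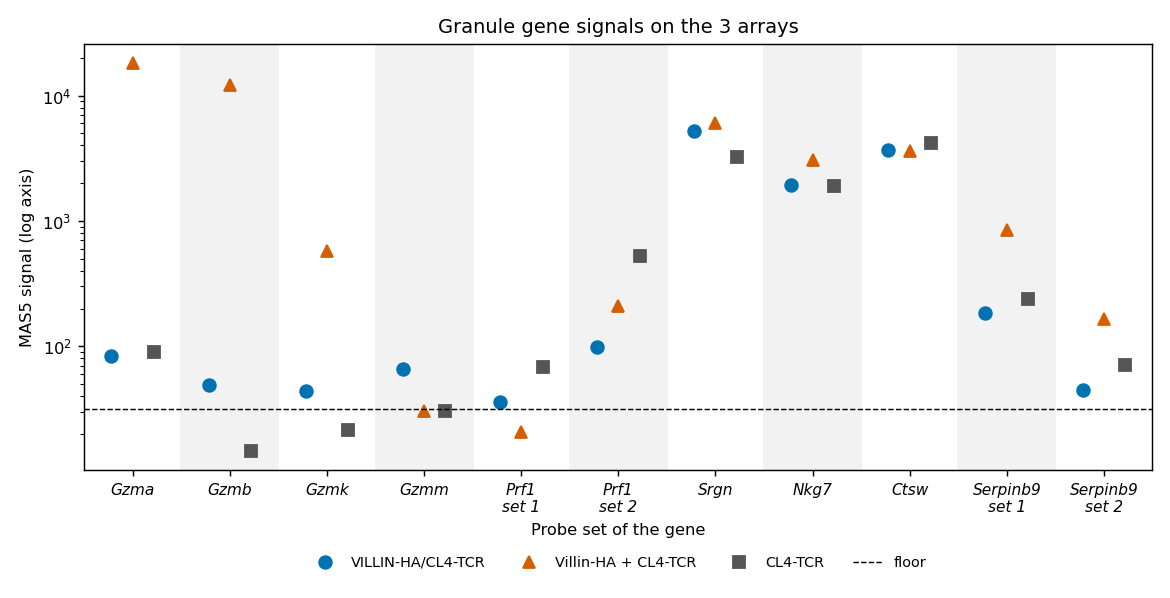
MAS5 signal on a log axis for each of the 11 probe sets of the 9 granule genes, with 1 point per array and no replicates; the dashed line is the floor of 31.7. Gzma, Gzmb and Gzmk are high in the Villin-HA + CL4-TCR sample alone, both probe sets of Prf1 are highest in the CL4-TCR sample (set 2 stands for the gene), and Srgn, Nkg7 and Ctsw lie within 2-fold on the 3 arrays.

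Prf1, which encodes perforin, lies on chromosome 10 from 61297751 to 61304684 and had its highest signal in the CL4-TCR sample. The brighter of its probe sets had signals of 98.9 in the VILLIN-HA/CL4-TCR sample, 208 in the Villin-HA + CL4-TCR sample and 525 in the CL4-TCR sample. The other had signals of 35.7 in the VILLIN-HA/CL4-TCR sample, 20.7, which is under the floor, in the Villin-HA + CL4-TCR sample and 68.8 in the CL4-TCR sample. Both were thus highest in the CL4-TCR sample, while they disagreed on which of the other samples was lower. By the brighter probe set, Prf1 was 5.31-fold lower in the VILLIN-HA/CL4-TCR sample and 2.53-fold lower in the Villin-HA + CL4-TCR sample than in the CL4-TCR sample. By the other, the log2 differences were -0.95 in the VILLIN-HA/CL4-TCR sample, short of 2-fold, and -1.12 as a bound in the Villin-HA + CL4-TCR sample.

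The letters just before the transcription starts of Gzmb, Gzma, Gzmk and Prf1 are shown because the 3 granzyme genes were high in the Villin-HA + CL4-TCR sample together and Prf1 was not. They are the 250 bases before the start of each gene from RefSeq (GRCm38.p6, the C57BL/6J reference, not a sequence of these mice), 5′ to 3′ on the strand of the gene. For Gzmb, Gzma and Gzmk this start is the end of the gene's span given above. For Prf1 it is the start of the transcript in the promoter table, at 61297836, which lies 85 bases inside the span of the gene, so part of that window falls within the span. They cover chr14:56262335-56262584 (minus strand) for Gzmb, chr13:113100982-113101231 (minus strand) for Gzma, chr13:113180966-113181215 (minus strand) for Gzmk and chr10:61297586-61297835 (plus strand) for Prf1. Capitals mark matches to TGANTCA (bound by AP-1 factors), TGTGGT (Runx factors) or AGGTGT (T-box factors), searched on both strands. TGACGTCA (CRE) was searched too and has no match in them.
Gzmb: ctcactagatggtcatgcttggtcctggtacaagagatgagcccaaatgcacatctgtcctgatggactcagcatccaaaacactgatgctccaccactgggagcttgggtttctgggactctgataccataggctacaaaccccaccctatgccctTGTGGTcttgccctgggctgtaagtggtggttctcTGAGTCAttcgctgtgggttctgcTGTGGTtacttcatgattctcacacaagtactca
Gzma: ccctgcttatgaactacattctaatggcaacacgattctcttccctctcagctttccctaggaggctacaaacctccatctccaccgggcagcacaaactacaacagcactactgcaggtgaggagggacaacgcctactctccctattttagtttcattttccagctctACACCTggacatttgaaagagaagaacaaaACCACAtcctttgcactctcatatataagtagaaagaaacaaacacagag
Gzmk: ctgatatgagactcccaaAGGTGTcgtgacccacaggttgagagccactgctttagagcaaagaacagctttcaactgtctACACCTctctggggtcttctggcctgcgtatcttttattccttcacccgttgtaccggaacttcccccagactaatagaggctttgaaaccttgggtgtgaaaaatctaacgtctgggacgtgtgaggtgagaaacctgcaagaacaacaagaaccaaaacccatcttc
Prf1: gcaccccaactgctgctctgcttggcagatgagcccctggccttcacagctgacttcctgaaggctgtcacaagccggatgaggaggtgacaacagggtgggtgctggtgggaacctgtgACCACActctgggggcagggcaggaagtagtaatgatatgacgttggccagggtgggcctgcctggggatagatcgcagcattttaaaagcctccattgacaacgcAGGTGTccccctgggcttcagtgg

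Gzmb holds TGANTCA from 58 to 52 bases before its start, with TGTGGT on either side of it, from 93 to 88 and from 34 to 29 bases before the start. Gzma holds AGGTGT and TGTGGT, both on the opposite strand, from 80 to 75 and from 50 to 45 bases before the start. Gzmk holds AGGTGT at 2 places, from 232 to 227 bases and, on the opposite strand, from 169 to 164 bases before its start. Prf1 holds TGTGGT on the opposite strand from 130 to 125 bases and AGGTGT from 24 to 19 bases before its start. No match overlapped another. Of the 9 genes, 8 have a promoter in the table, with 10 windows in all, since Gzmm and Srgn have 2 each. Among these windows 1 holds TGANTCA, 6 hold TGTGGT, 4 hold AGGTGT and 0 hold TGACGTCA. Not all of them lie before the gene. The window of Serpinb9 and window 2 of Gzmm and of Srgn precede starts 7480, 4806 and 19688 bases inside the span of the gene. The TGTGGT match of Srgn is in its window 2. Of all 32851 promoter windows of the same length, 6.75% hold TGANTCA, 14% TGTGGT, 11.8% AGGTGT and 1.55% TGACGTCA. A match describes the letters and not a bound site. Gzma, Prf1 and Nkg7 each hold TGTGGT and AGGTGT, and Gzmb alone of the 8 genes holds TGANTCA.

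Srgn, Nkg7 and Ctsw differed by less than 2-fold in every comparison and were well above the floor in all samples. Srgn encodes serglycin, the matrix on which granzymes and perforin are stored, and lies on chromosome 10 from 62493833 to 62527445. Its signals were 5239 in the VILLIN-HA/CL4-TCR sample, 6021 in the Villin-HA + CL4-TCR sample and 3245 in the CL4-TCR sample. The VILLIN-HA/CL4-TCR sample was higher than the CL4-TCR sample by 0.69 and the Villin-HA + CL4-TCR sample by 0.89 on the log2 scale, short of 2-fold. The order of the samples with Villin-HA in their name, 0.20 apart on the log2 scale, turned round when arrays were scaled to the same median.

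Nkg7 encodes a membrane protein of granules that is needed for their release, and lies on chromosome 7 from 43437138 to 43438246. It had signals of 1951 in the VILLIN-HA/CL4-TCR sample, 3079 in the Villin-HA + CL4-TCR sample and 1896 in the CL4-TCR sample. The Villin-HA + CL4-TCR sample was highest, with a log2 difference of 0.70 from the CL4-TCR sample, and the other samples were 0.04 apart. Ctsw encodes cathepsin W, a cysteine protease of NK and CD8 T cells, and lies on chromosome 19 from 5465043 to 5468628. Its signals were 3654 in the VILLIN-HA/CL4-TCR sample, 3619 in the Villin-HA + CL4-TCR sample and 4175 in the CL4-TCR sample, the most alike of the 9 genes. The log2 difference from CL4-TCR was -0.19 for VILLIN-HA/CL4-TCR and -0.21 for Villin-HA + CL4-TCR.

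Serpinb9 encodes a cytosolic inhibitor of granzyme B that protects cytotoxic cells from it, and lies on chromosome 13 from 32997061 to 33017955. It was high in the sample where Gzmb was high. Its brighter probe set had signals of 183 in the VILLIN-HA/CL4-TCR sample, 854 in the Villin-HA + CL4-TCR sample and 239 in the CL4-TCR sample, and the other had 45.0 in the VILLIN-HA/CL4-TCR sample, 166 in the Villin-HA + CL4-TCR sample and 70.8 in the CL4-TCR sample. Both probe sets gave 1 order, with the Villin-HA + CL4-TCR sample highest and the VILLIN-HA/CL4-TCR sample lowest. Serpinb9 was 3.57-fold higher in the Villin-HA + CL4-TCR than in the CL4-TCR sample by the brighter and 2.34-fold by the other probe set. By the brighter and the other probe set, the VILLIN-HA/CL4-TCR sample had log2 differences of -0.39 and -0.65 from the CL4-TCR sample, which are not called. Mice carry several close relatives of Serpinb9, and cross-hybridisation with them was not tested.

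Set against the background of all genes, the granule genes were counted as follows. In the VILLIN-HA/CL4-TCR sample against the CL4-TCR sample, 1 of the 9 measured genes was higher (Gzmm) and 1 lower (Prf1), where 7.43% of all 11260 measured genes were higher and 6.63% lower. Gzmm, Gzmb and Gzmk were all bounds there, since their CL4-TCR signals were under the floor. Without the floor their ratios were 2.19, 3.38 and 2.06, so the call of Gzmm alone among them depends on the floor. The median log2 difference was 0.04 for the 9 genes and -0.04 for all. In the Villin-HA + CL4-TCR sample against the CL4-TCR sample, 4 of 8 measured genes were higher (Gzma, Gzmb, Gzmk and Serpinb9) and 1 was lower (Prf1), where 11.9% of all genes were higher and 9.53% lower. The median was 1.36 for the 8 genes and 0.06 for all genes. The members were listed with such values in view, so these shares describe them and support nothing further.

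The comparison of VILLIN-HA/CL4-TCR with Villin-HA + CL4-TCR shows the same split directly. There 5 of 9 genes were lower in the VILLIN-HA/CL4-TCR sample, against 8.95% of all 12081 measured genes, and 1 was higher, against 6.14%. Gzmb was 245-fold and Gzma 217-fold lower in the VILLIN-HA/CL4-TCR sample, ranks 1 and 2 from the lowest. Gzmk was 13.1-fold and Serpinb9 4.66-fold lower. Prf1 was 2.10-fold lower by its brighter probe set, while its other one had a log2 difference of 0.17, and at a common median the brighter one had -0.81. Gzmm was the higher gene, at least 2.08-fold. Every array enters a pair of these comparisons, so they are not independent of each other.

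**Figure D2:**
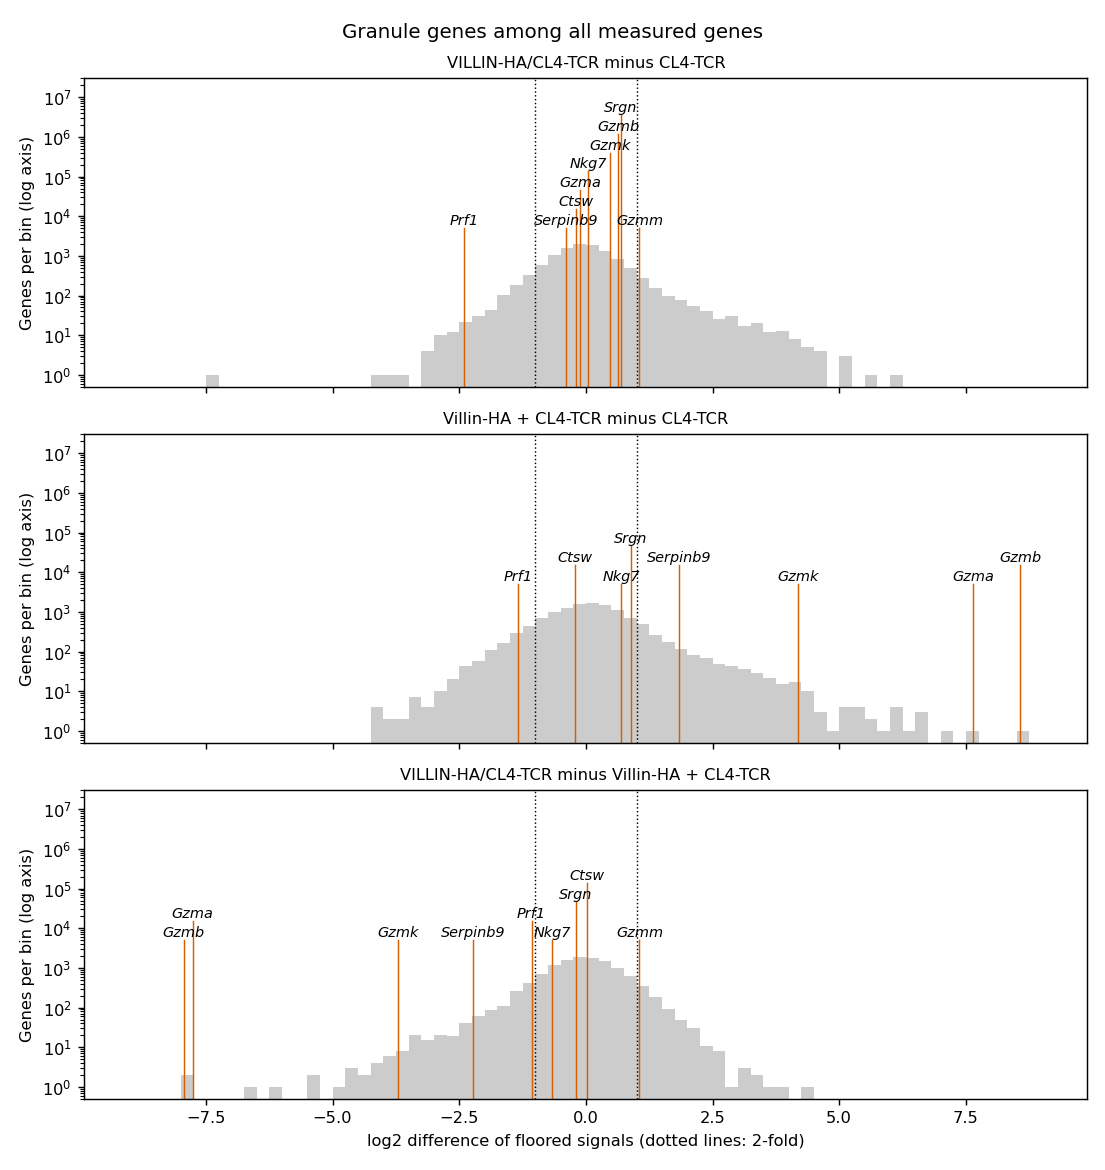
Histograms of the log2 difference of floored signals over all measured genes in the 3 comparisons (genes per bin on a log axis), with the granule genes as orange lines and 2-fold as dotted lines. Gzma and Gzmb lie at the far end of the Villin-HA + CL4-TCR against CL4-TCR comparison, at 7.65 and 8.57. In the VILLIN-HA/CL4-TCR against CL4-TCR comparison Gzma lies near the middle, at -0.11. Gzmb lies to the right of it there, at 0.64, which is a lower bound short of the 2-fold line.

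Probe sets of 1 gene gave a measure of error that covers probes but not mice or sorts. Their log2 differences varied by a pooled SD of 0.43 between the VILLIN-HA/CL4-TCR and CL4-TCR samples, over 4175 genes with several measured probe sets. The SD was 0.65 between the Villin-HA + CL4-TCR and CL4-TCR samples (4181 genes) and 0.61 for the VILLIN-HA/CL4-TCR against the Villin-HA + CL4-TCR sample (4222 genes). The differences of Gzma, Gzmb, Gzmk and Serpinb9 between Villin-HA + CL4-TCR and CL4-TCR were larger than that SD, those of Srgn and Nkg7, at 0.89 and 0.70, were slightly above it, and that of Ctsw was below it. Scaling the arrays to the same median, in place of the same trimmed mean, moved the median of all genes from 0.06 to -0.14 between Villin-HA + CL4-TCR and CL4-TCR and from -0.06 to 0.19 for VILLIN-HA/CL4-TCR against Villin-HA + CL4-TCR. The share of calls that were higher changed with it, from 55.6% to 38.3% between Villin-HA + CL4-TCR and CL4-TCR and from 40.7% to 67.1% for VILLIN-HA/CL4-TCR against Villin-HA + CL4-TCR. At that scaling Gzmb, Gzma, Gzmk and Serpinb9 had log2 differences of 8.42, 7.44, 4.03 and 1.63 between Villin-HA + CL4-TCR and CL4-TCR.

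Other genes of granule biology were taken from a list of 63 symbols in 7 roles, of which 58 were found on the array. In the VILLIN-HA/CL4-TCR sample against the CL4-TCR sample, 8 of 49 measured genes were higher and 5 lower, where 7.43% of all measured genes were higher and 6.63% lower. The median log2 difference was 0.16 for the list and -0.04 for all. In the Villin-HA + CL4-TCR sample against the CL4-TCR sample, 19 of 53 were higher and 2 lower, where 11.9% of all genes were higher and 9.53% lower. The median was 0.59 for the list and 0.06 for all. For VILLIN-HA/CL4-TCR against Villin-HA + CL4-TCR, 4 of 53 were higher and 16 lower, where 6.14% of all genes were higher and 8.95% lower. The median was -0.38 for the list and -0.06 for all. The list was drawn up with earlier results of these data known, so these counts describe it and support nothing further.

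The further granzyme genes of mice, Gzmc, Gzmd, Gzme, Gzmf, Gzmg and Gzmn, were under the floor on all arrays except for Gzmc in the Villin-HA + CL4-TCR sample, at a signal of 31.8. None of the 6 proteases of granules and lysosomes was called against the CL4-TCR sample. Ctsc, which encodes the cathepsin that activates granzymes by removing a dipeptide, had signals of 3144 in the VILLIN-HA/CL4-TCR sample, 3180 in the Villin-HA + CL4-TCR sample and 3168 in the CL4-TCR sample. These 3 signals were nearly equal. The other measured probe set of Ctsc was not, with log2 differences from CL4-TCR of 0.22 for VILLIN-HA/CL4-TCR and 1.29 for Villin-HA + CL4-TCR, the second past 2-fold.

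Among genes of granule membranes and sorting, Lyst, which controls the size of lysosome-related organelles, was lower in both samples with Villin-HA in their name than in the CL4-TCR sample. Its signals were 170 in the VILLIN-HA/CL4-TCR sample, 164 in the Villin-HA + CL4-TCR sample and 697 in the CL4-TCR sample, a fold of 4.09 for VILLIN-HA/CL4-TCR and 4.24 for Villin-HA + CL4-TCR. Another probe set of Lyst differed less, with log2 differences from CL4-TCR of -0.64 for VILLIN-HA/CL4-TCR and -0.35 for Villin-HA + CL4-TCR. M6pr, a receptor that sorts enzymes to lysosomes, had signals of 635 in the VILLIN-HA/CL4-TCR sample, 1317 in the Villin-HA + CL4-TCR sample and 555 in the CL4-TCR sample. It was 2.37-fold higher in the Villin-HA + CL4-TCR than in the CL4-TCR sample by its chosen probe set and had a log2 difference of 1.50 by another. Gnptab, an enzyme that makes the sorting tag, had signals of 323 in the VILLIN-HA/CL4-TCR sample, 543 in the Villin-HA + CL4-TCR sample and 235 in the CL4-TCR sample. It was 2.31-fold higher there by its chosen probe set, with others from -0.23 to 0.67 on the log2 scale.

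Of 12 genes of granule docking and release, 1 was higher and 3 lower in the VILLIN-HA/CL4-TCR sample against the CL4-TCR sample, and 2 were higher and 0 lower in the Villin-HA + CL4-TCR sample. Over all genes 7.43% were higher and 6.63% lower in the VILLIN-HA/CL4-TCR sample, and 11.9% were higher and 9.53% lower in the Villin-HA + CL4-TCR sample, so the counts of higher genes were near the background. Stx11, a membrane fusion protein that cytotoxic cells need for killing, had signals of 451 in the VILLIN-HA/CL4-TCR sample, 665 in the Villin-HA + CL4-TCR sample and 44.6 in the CL4-TCR sample. Against the CL4-TCR sample it was 10.1-fold higher in the VILLIN-HA/CL4-TCR and 14.9-fold higher in the Villin-HA + CL4-TCR sample, and another probe set gave log2 differences of 1.50 for VILLIN-HA/CL4-TCR and 1.23 for Villin-HA + CL4-TCR. Stxbp2, its binding partner, had signals of 114 in the VILLIN-HA/CL4-TCR sample, 383 in the Villin-HA + CL4-TCR sample and 191 in the CL4-TCR sample. It was 2.00-fold higher in the Villin-HA + CL4-TCR sample, with other probe sets at 1.16 and 1.48 on the log2 scale. Sytl2, which links granules to the cell membrane, had signals of 53.9 in the VILLIN-HA/CL4-TCR sample, 522 in the Villin-HA + CL4-TCR sample and 331 in the CL4-TCR sample. It was 6.15-fold lower in the VILLIN-HA/CL4-TCR sample than in the CL4-TCR sample. Unc13d, the priming factor of granule fusion, had signals of 122 in the VILLIN-HA/CL4-TCR sample, 296 in the Villin-HA + CL4-TCR sample and 328 in the CL4-TCR sample, and was 2.69-fold lower in the VILLIN-HA/CL4-TCR sample than in the CL4-TCR sample. Sytl1, a relative of Sytl2, had signals of 131 in the VILLIN-HA/CL4-TCR sample, 172 in the Villin-HA + CL4-TCR sample and 317 in the CL4-TCR sample, and was 2.42-fold lower in that comparison.

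The list of protease inhibitors, which also holds Calr, had 7 measured genes. Against the CL4-TCR sample, 2 of 7 were higher in the VILLIN-HA/CL4-TCR sample and 4 of 7 in the Villin-HA + CL4-TCR sample, with 0 lower in either. Calr was called in neither. Of all genes, 7.43% were higher in the VILLIN-HA/CL4-TCR and 11.9% in the Villin-HA + CL4-TCR sample. Serpinb6b, an intracellular serpin, had signals of 646 in the VILLIN-HA/CL4-TCR sample, 2169 in the Villin-HA + CL4-TCR sample and 172 in the CL4-TCR sample. Against CL4-TCR it was 3.75-fold higher in the VILLIN-HA/CL4-TCR and 12.6-fold higher in the Villin-HA + CL4-TCR sample. Its relative Serpinb6a had signals of 469 in the VILLIN-HA/CL4-TCR sample, 1153 in the Villin-HA + CL4-TCR sample and 154 in the CL4-TCR sample, and was 3.05-fold higher in the VILLIN-HA/CL4-TCR and 7.49-fold higher in the Villin-HA + CL4-TCR sample. Serpinb1a, another intracellular serpin, had signals of 23.5 in the VILLIN-HA/CL4-TCR sample, 240.2 in the Villin-HA + CL4-TCR sample and 34.1 in the CL4-TCR sample. It was 7.04-fold higher in the Villin-HA + CL4-TCR sample, with another probe set at a log2 difference of 0.73. Unlike Serpinb9, the pair of Serpinb6 genes was thus called in both samples against CL4-TCR.

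Of killing ligands and cytokines, Ifng, which encodes interferon gamma, had signals of 58.7 in the VILLIN-HA/CL4-TCR sample, 632 in the Villin-HA + CL4-TCR sample and 4.2 in the CL4-TCR sample, at least 19.9-fold higher in the Villin-HA + CL4-TCR sample. Fasl, the death ligand that kills without granules, had signals of 25.7 in the VILLIN-HA/CL4-TCR sample, 203 in the Villin-HA + CL4-TCR sample and 19.9 in the CL4-TCR sample, and was at least 6.39-fold higher in the Villin-HA + CL4-TCR sample. Tnf, which encodes tumour necrosis factor, had signals of 111 in the VILLIN-HA/CL4-TCR sample, 104 in the Villin-HA + CL4-TCR sample and 43.0 in the CL4-TCR sample, and was 2.58-fold higher in the VILLIN-HA/CL4-TCR and 2.42-fold higher in the Villin-HA + CL4-TCR sample than in the CL4-TCR sample. Tnfsf10 had signals of 300 in the VILLIN-HA/CL4-TCR sample, 140 in the Villin-HA + CL4-TCR sample and 148 in the CL4-TCR sample. Its other probe sets gave log2 differences from CL4-TCR of 0.77 to 1.73 for VILLIN-HA/CL4-TCR and 1.07 to 1.49 for Villin-HA + CL4-TCR. Lta had 94.6 in the VILLIN-HA/CL4-TCR sample, 16.8, under the floor, in the Villin-HA + CL4-TCR sample and 50.9 in the CL4-TCR sample.

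Regulators of granule genes were called higher for 3 of 11 measured genes in the VILLIN-HA/CL4-TCR sample and 8 of 13 in the Villin-HA + CL4-TCR sample, and 1 was lower in each. Over all genes 7.43% were higher and 6.63% lower in the VILLIN-HA/CL4-TCR sample, and 11.9% were higher and 9.53% lower in the Villin-HA + CL4-TCR sample. Eomes, a T-box factor that can activate Prf1 and Gzmb, was the lower gene in both, with signals of 185 in the VILLIN-HA/CL4-TCR sample, 91.4 in the Villin-HA + CL4-TCR sample and 993 in the CL4-TCR sample. Against CL4-TCR it was 5.38-fold lower in the VILLIN-HA/CL4-TCR and 10.9-fold lower in the Villin-HA + CL4-TCR sample, and another probe set gave log2 differences of -2.52 for VILLIN-HA/CL4-TCR and -4.34 for Villin-HA + CL4-TCR. Tbx21, which encodes the related factor T-bet, had signals of 184 in the VILLIN-HA/CL4-TCR sample, 257 in the Villin-HA + CL4-TCR sample and 66.5 in the CL4-TCR sample, and was 2.77-fold higher in the VILLIN-HA/CL4-TCR sample and 3.87-fold higher in the Villin-HA + CL4-TCR sample. Like Prf1, Eomes had its highest signal in the CL4-TCR sample, while Tbx21 had its lowest there.

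Bhlhe40, a transcription factor induced in activated T cells, had signals of 238 in the VILLIN-HA/CL4-TCR sample, 2435 in the Villin-HA + CL4-TCR sample and 4.2 in the CL4-TCR sample. Against CL4-TCR it was at least 7.50-fold higher in the VILLIN-HA/CL4-TCR and at least 76.8-fold higher in the Villin-HA + CL4-TCR sample. Prdm1, which encodes Blimp-1, a factor of terminal effector cells, had signals of 23.1 in the VILLIN-HA/CL4-TCR sample, 215 in the Villin-HA + CL4-TCR sample and 28.7 in the CL4-TCR sample, and was at least 6.77-fold higher in the Villin-HA + CL4-TCR sample. Il2ra, a chain of the receptor for interleukin 2, had signals of 114 in the VILLIN-HA/CL4-TCR sample, 294 in the Villin-HA + CL4-TCR sample and 12.3 in the CL4-TCR sample. By this probe set it was at least 3.60-fold higher in the VILLIN-HA/CL4-TCR and at least 9.29-fold higher in the Villin-HA + CL4-TCR sample than in the CL4-TCR sample. Another probe set differed less, with log2 differences from CL4-TCR of 1.03 for VILLIN-HA/CL4-TCR and 1.79 for Villin-HA + CL4-TCR.

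**Figure D3:**
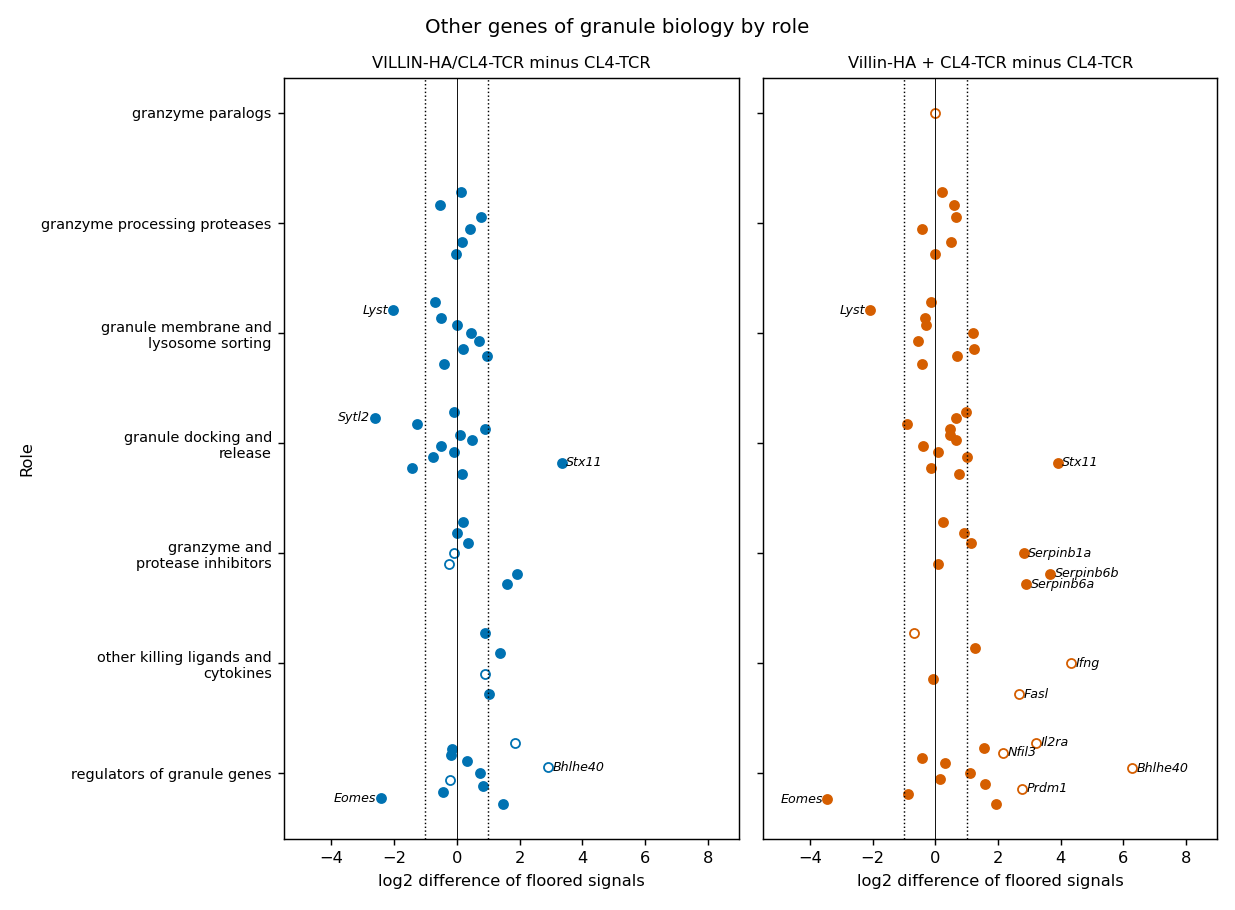
Log2 difference of floored signals for the measured genes of the granule list, by role, in the VILLIN-HA/CL4-TCR sample (left) and the Villin-HA + CL4-TCR sample (right) against the CL4-TCR sample; 1 point per gene, open where the value is a bound, with names where the size is at least 2 and dotted lines at 2-fold. Points lie further right in the Villin-HA + CL4-TCR sample for the inhibitors and regulators, while Lyst and Eomes lie to the left in both.

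The genes whose signals ran most like those of Gzmb and Gzma were sought among 10497 named genes other than the 9 granule genes, all above the floor on at least 2 arrays. Genes above the floor in the Villin-HA + CL4-TCR sample alone were thus left out. Myh1, a muscle gene whose signals are given below, is 1 of them. Such genes may lie nearer to Gzmb and Gzma than those found. Likeness was the Euclidean distance over the 3 floored log2 signals, each centred on its mean. By this measure Gzmb and Gzma lay 0.695 apart and were nearer to each other than to any gene searched. Of the genes searched, the 5 nearest to Gzmb were also the 5 nearest to Gzma, in 1 order. They were Ifitm3, an interferon-induced membrane protein (distance 2.31 from Gzmb and 1.86 from Gzma), S100a6, a calcium-binding protein (2.53 and 2.20), Acta1, the actin of skeletal muscle (2.63 and 2.21), Rgs1, a regulator of G protein signals (2.73 and 2.58), and Dusp1, a MAP kinase phosphatase (3.06 and 2.81). Ifitm3 had signals of 49.2 in the VILLIN-HA/CL4-TCR sample, 1965 in the Villin-HA + CL4-TCR sample and 41.4 in the CL4-TCR sample. For Prf1, taken by its brighter probe set alone, the nearest was Pde2a, a phosphodiesterase, at a distance of 0.02. Pde2a had signals of 776 in the VILLIN-HA/CL4-TCR sample, 1623 in the Villin-HA + CL4-TCR sample and 4191 in the CL4-TCR sample. Als2cl, Pik3r5, Gab3 and Zfp652 followed at 0.12 to 0.15. With 3 arrays, many genes can share a pattern.

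Markers of CD8 T cells were above the floor on each array for all 6 found of 8 listed, with Cd8a at 2893 in the VILLIN-HA/CL4-TCR sample, 3149 in the Villin-HA + CL4-TCR sample and 2714 in the CL4-TCR sample. The 4 other probe sets of Cd8a gave log2 differences relative to CL4-TCR from -0.06 to 0.27 for VILLIN-HA/CL4-TCR and from -0.01 to 2.01 for Villin-HA + CL4-TCR. Other cells can hold granule transcripts too. Of 7 NK cell markers, 2 were above the floor in the VILLIN-HA/CL4-TCR sample, 5 in the Villin-HA + CL4-TCR sample and 1 in the CL4-TCR sample, with summed signals of 187 in the VILLIN-HA/CL4-TCR sample, 465 in the Villin-HA + CL4-TCR sample and 128 in the CL4-TCR sample. The NK receptor genes Ncr1 and Klra8 were under the floor on all 3 arrays. Klre1, Itga2 and Fcer1g passed it in the Villin-HA + CL4-TCR sample alone, with signals there of 50.4, 38.2 and 51.9. Cd244a, a receptor that activated CD8 T cells also carry, had 32.1 in the VILLIN-HA/CL4-TCR sample, 175 in the Villin-HA + CL4-TCR sample and 11.2 in the CL4-TCR sample. Tyrobp, a signalling adaptor of NK and myeloid cells, had 71.6 in the VILLIN-HA/CL4-TCR sample, 99.2 in the Villin-HA + CL4-TCR sample and 32.3 in the CL4-TCR sample. Of 8 mast cell and basophil markers, 1 was above the floor in the VILLIN-HA/CL4-TCR sample, 2 in the Villin-HA + CL4-TCR sample and 0 in the CL4-TCR sample, with summed signals of 268 in the VILLIN-HA/CL4-TCR sample, 199 in the Villin-HA + CL4-TCR sample and 112 in the CL4-TCR sample. Kit, the receptor for stem cell factor, had 197 in the VILLIN-HA/CL4-TCR sample, 87.2 in the Villin-HA + CL4-TCR sample and 14.9 in the CL4-TCR sample, and was at least 6.20-fold higher in the VILLIN-HA/CL4-TCR and at least 2.75-fold higher in the Villin-HA + CL4-TCR sample than in the CL4-TCR sample. Another probe set of Kit gave a log2 difference of 0.21 for VILLIN-HA/CL4-TCR against CL4-TCR. The mast cell protease genes Cpa3, Cma1 and Mcpt4 were under the floor on every array.

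Of 8 myeloid and neutrophil markers, 2 were above the floor in the VILLIN-HA/CL4-TCR sample, 6 in the Villin-HA + CL4-TCR sample and 2 in the CL4-TCR sample, with summed signals of 1297 in the VILLIN-HA/CL4-TCR sample, 1612 in the Villin-HA + CL4-TCR sample and 205 in the CL4-TCR sample. S100a8, an abundant neutrophil transcript, had 12.9 in the VILLIN-HA/CL4-TCR sample, 739 in the Villin-HA + CL4-TCR sample and 9.5 in the CL4-TCR sample. The lysozyme gene Lyz2 had 817 in the VILLIN-HA/CL4-TCR sample, 312 in the Villin-HA + CL4-TCR sample and 84.5 in the CL4-TCR sample. Csf1r, a receptor of macrophages, had 384 in the VILLIN-HA/CL4-TCR sample, 125 in the Villin-HA + CL4-TCR sample and 40.9 in the CL4-TCR sample. Its 2 other measured probe sets gave log2 differences from CL4-TCR of 0.33 to 1.72 for VILLIN-HA/CL4-TCR and 0.93 to 1.64 for Villin-HA + CL4-TCR. For VILLIN-HA/CL4-TCR against Villin-HA + CL4-TCR they gave -0.60 to 0.09, where the chosen one gave 1.62. Myh1, a myosin of skeletal muscle, had 5.1 in the VILLIN-HA/CL4-TCR sample, 2100 in the Villin-HA + CL4-TCR sample and 8.1 in the CL4-TCR sample. Csf3r and Itgam, from the same list of myeloid and neutrophil markers, were under the floor on every array. Csf3r had 31.3 in the VILLIN-HA/CL4-TCR sample, 18.9 in the Villin-HA + CL4-TCR sample and 24.6 in the CL4-TCR sample. Some but not all transcripts known from neutrophils, and the muscle transcript Myh1, were thus high in the sample where the granzymes were high. Their part in the granzyme signals was not tested.

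**Figure D4:**
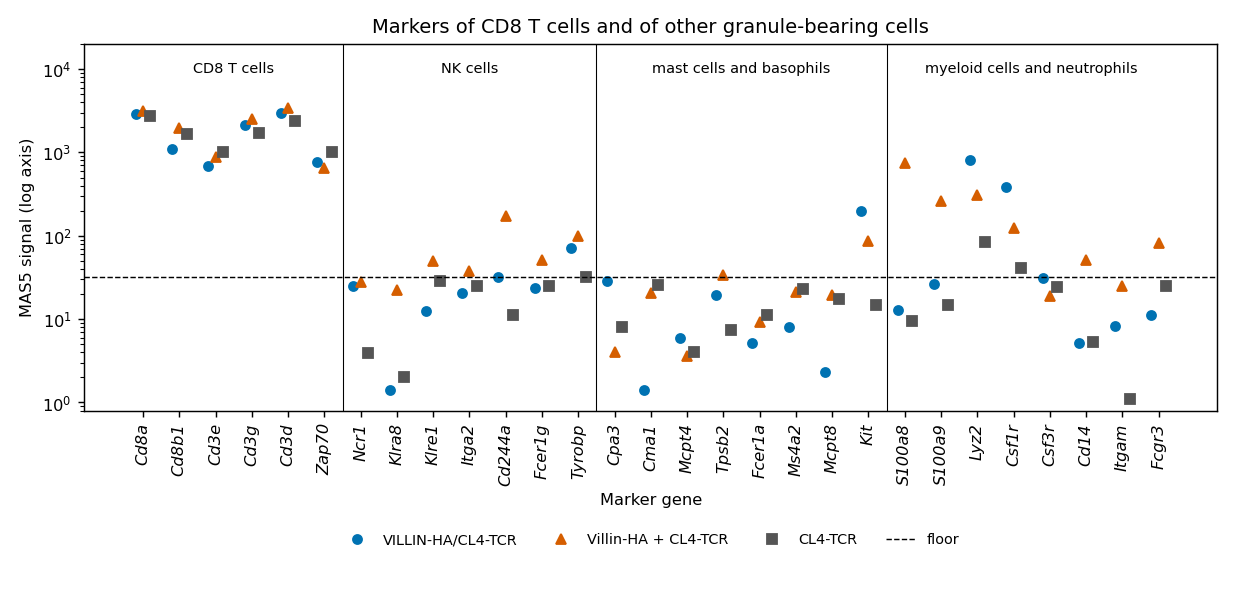
MAS5 signal on a log axis for markers of CD8 T cells, NK cells, mast cells and basophils, and myeloid cells and neutrophils, with 1 point per array and the floor of 31.7 as a dashed line. CD8 T cell markers, each by its chosen probe set, lie close together on the 3 arrays, most NK and mast cell markers lie near or under the floor, and S100a8 and S100a9 are above it in the Villin-HA + CL4-TCR sample alone.

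The arrays differed in further ways that cannot be told apart from the groups. The ratio of the 3′ to the 5′ control probe set of Gapdh, a sign of RNA length, was 46.2 in the VILLIN-HA/CL4-TCR sample, 3.35 in the Villin-HA + CL4-TCR sample and 18.4 in the CL4-TCR sample, and that of Actb was 2.46 in the VILLIN-HA/CL4-TCR sample, 1.80 in the Villin-HA + CL4-TCR sample and 1.98 in the CL4-TCR sample. Xist, expressed in female cells, had signals of 2.5 in the VILLIN-HA/CL4-TCR sample, 1339 in the Villin-HA + CL4-TCR sample and 5443 in the CL4-TCR sample. The Y-linked gene Eif2s3y had 1496 in the VILLIN-HA/CL4-TCR sample, 747 in the Villin-HA + CL4-TCR sample and 13.4 in the CL4-TCR sample, so by these transcripts the sex of the mice differed between samples. In the Villin-HA + CL4-TCR sample alone, both the female and the Y-linked transcript were above the floor. Mki67, a marker of dividing cells, had signals of 2197 in the VILLIN-HA/CL4-TCR sample, 3191 in the Villin-HA + CL4-TCR sample and 22.8 in the CL4-TCR sample, the last of them under the floor. The median signal was 29.4 in the VILLIN-HA/CL4-TCR sample, 35.3 in the Villin-HA + CL4-TCR sample and 30.6 in the CL4-TCR sample.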

How the data were processed

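The deposited values are MAS5 intensity values of 1 array per sample, per the submitters' processing notes, which name no version. MAS5 combines the probes of each set on a linear scale and then scales each array. The deposited intensity values have a trimmed mean of 150 on each array with 2% cut at either end, so a change common to most transcripts is not visible in them. How background was subtracted is not stated in the labels.

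Groups were taken from the source names. Of 45101 probe sets, 34958 had 1 symbol in the platform annotation, 932 several and 9211 none. Symbols were updated by Entrez identifier to the RefSeq table of GRCm38.p6, in which 34754 were found. The probe set with the highest mean signal stood for each gene. Differences were taken between floored log2 signals with pandas 2.3.3 and numpy 2.4.6, and the calculation was tested on simulated data. With 1 array per group no test was possible, and precision is limited by the number of arrays. The members, the 15 gene lists and the alternatives were chosen with earlier results of these data known. All members were described. Of the list genes, at most 3 per role and direction were named, by the size of the log2 difference, and their signals were given on all arrays. For likeness to Gzmb, Gzma and Prf1, 5 genes each were named. Ctsc, the single markers of cell types, Mki67, Myh1, Xist and Eif2s3y were named outside this rule, after their values were seen. Alternatives were another floor, a pseudocount of 16, other scalings, other choices of probe sets and a 3-fold threshold.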

Additional observations from a re-analysis of the deposited data

How the results depend on the processing

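Each count of granule genes was taken under 7 alternatives, and 32 of 42 values stayed within 1.5 times the reported count. The higher gene in the VILLIN-HA/CL4-TCR sample, Gzmm, was lost in the comparison with CL4-TCR (0 genes) with the floor at the 65th percentile, without _s_at, _x_at and _a_at probe sets, and at 3-fold. Against Villin-HA + CL4-TCR it was lost (0 genes) under those 3 settings and with log2(signal + 16). With log2(signal + 16) the count against CL4-TCR stayed at 1, but the gene was Gzmb (1.09) in place of Gzmm (0.83). Without _s_at, _x_at and _a_at probe sets, which leaves out Gzma, Gzmm and the brighter probe set of Prf1, 0 genes were lower on VILLIN-HA/CL4-TCR than on CL4-TCR, and 3 were lower than on Villin-HA + CL4-TCR. At 3-fold, 0 were lower on Villin-HA + CL4-TCR against CL4-TCR. The log2 difference of Prf1 for VILLIN-HA/CL4-TCR against Villin-HA + CL4-TCR reversed to 0.17 without those probe sets.

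For the granule list, 33 of 42 values stayed within 1.5 times, under alternatives chosen after seeing the data. At 3-fold, 5 were higher and 3 lower for VILLIN-HA/CL4-TCR than for CL4-TCR. On Villin-HA + CL4-TCR against CL4-TCR 11 were higher. On VILLIN-HA/CL4-TCR against Villin-HA + CL4-TCR, 0 were higher and 10 lower. Without the probe sets above, 3 were lower for VILLIN-HA/CL4-TCR than for CL4-TCR. With the median of the probe sets of a gene, 2 were higher on VILLIN-HA/CL4-TCR against Villin-HA + CL4-TCR and 1 was lower on Villin-HA + CL4-TCR than on CL4-TCR. At a common median 4 were lower on Villin-HA + CL4-TCR than on CL4-TCR. Of all measured genes, 4.92%, 8% and 4.23% passed 3-fold for VILLIN-HA/CL4-TCR relative to CL4-TCR, Villin-HA + CL4-TCR relative to CL4-TCR and VILLIN-HA/CL4-TCR relative to Villin-HA + CL4-TCR, against 14.1%, 21.4% and 15.1% at 2-fold, and 9.65%, 14.1% and 9.27% passed 2-fold by the median of probe sets. The cause was not tested. Of 147 alternative values of single members, 139 moved by less than the SD between probe sets, 7 moved by more and 1 reversed. The values that moved were those of Gzmb, Gzmk and Prf1, and the reversed one was of Prf1. Many values could not move, such as the median of probe sets for genes with 1 probe set. Values that a setting left unmeasured were not counted, so these counts are no measure of stability. No paired analysis was possible because each group holds 1 array. Signals near the floor, as for Gzmm, Gzmk and Gzmb in the VILLIN-HA/CL4-TCR and CL4-TCR samples, have no reliable order.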

Other observations

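Of 3 CD4 T cell markers, 0 were above the floor in the VILLIN-HA/CL4-TCR sample, 0 in the Villin-HA + CL4-TCR sample and 1 in the CL4-TCR sample, Zbtb7b at 60.9. Of 4 B cell markers found, 3 were above it for VILLIN-HA/CL4-TCR, 2 for Villin-HA + CL4-TCR and 3 for CL4-TCR, and Cd79b, a chain of the B cell receptor complex, had signals of 199 in the VILLIN-HA/CL4-TCR sample, 233 in the Villin-HA + CL4-TCR sample and 111 in the CL4-TCR sample. The B cell genes Ms4a1 and Pax5 had another order. Ms4a1 had signals of 147 in the VILLIN-HA/CL4-TCR sample, 52.5 in the Villin-HA + CL4-TCR sample and 55.8 in the CL4-TCR sample, and Pax5 had 51.8 in the VILLIN-HA/CL4-TCR sample, 26.0 in the Villin-HA + CL4-TCR sample and 34.5 in the CL4-TCR sample. Of the 5 listed gamma delta T cell markers only Sox13 was found, at 17.4 in the VILLIN-HA/CL4-TCR sample, 4.3 in the Villin-HA + CL4-TCR sample and 42.1 in the CL4-TCR sample, and no statement on those cells is made. Of 5 plasmacytoid dendritic cell markers found, 3 were above the floor for VILLIN-HA/CL4-TCR, 4 for Villin-HA + CL4-TCR and 3 for CL4-TCR. Siglech was under it on all arrays, and Ccr9, a gut-homing receptor that T cells also express, made up most of that list's signal, at 5404 in the VILLIN-HA/CL4-TCR sample, 5245 in the Villin-HA + CL4-TCR sample and 2976 in the CL4-TCR sample.

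A probe set annotated to both Gzme and Gzmd was not used to name a gene and had signals of 4.4 in the VILLIN-HA/CL4-TCR sample, 0.9 in the Villin-HA + CL4-TCR sample and 10.4 in the CL4-TCR sample, all under the floor.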
